A study of Mus musculus with 2 samples.

Results

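The 10 genes Gpnmb, Lpl, Trem2, Spp1, Fabp5, Apoe, Cd36, Lgals3, Cd9 and Mmp12 mark lipid-associated macrophages in mouse tissues, and they were followed here by symbol among the 22620 genes of 2 single-cell count tables. The list was drawn up with results of these cells known: Lpl and Gpnmb led a macrophage cluster of the tumour in an earlier clustering of the same cells, and Nrp2 was high in it. The levels of the 10 genes in tumour macrophages and their contrasts between macrophage clusters therefore describe the genes and lend no independent support to the choice. All 10 genes were detected in both libraries.

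The study followed breast cancer cells that leave lymph nodes through high endothelial venules, the vessels by which lymphocytes enter a node. EO771 is a mouse mammary carcinoma line, and its derivative EO771-HEVM3 was selected by the study, in repeated passages through mice, for cells that reached the lung by way of lymph node venules. Both groups came from female C57BL/6 mice, 5 to 6 weeks old when obtained, that carried EO771-HEVM3 tumours by the sample titles. The first library held the primary tumours and the second the paired lymph nodes, each pooled from 6 mice whose cells the labels do not tell apart. Each group was therefore 1 library, so no difference between the tissues has a replicate check, and intervals cover counting error only. Lymph nodes without tumour were not analysed here, and tissue, digestion and library cannot be told apart.

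Lipid-associated macrophages take up lipid from dying cells, lipoproteins and fat-laden tissue, store or degrade it, and export cholesterol. They are known from obese adipose tissue, atherosclerotic plaques, injured liver and tumours, where the lipid-sensing receptor Trem2, which signals through the adaptor Tyrobp, is needed for much of the state. Lpl is a secreted lipase that frees fatty acids from lipoprotein triglyceride, Cd36 is a scavenger receptor and fatty acid transporter, Fabp5 carries fatty acids inside the cell, and Apoe is the lipoprotein component that takes cholesterol out. Gpnmb is a membrane glycoprotein of lysosomes, Lgals3 (galectin-3) binds galactosides on damaged lysosomes and cell surfaces, Cd9 is a tetraspanin, Spp1 (osteopontin) is a secreted ligand of integrins and CD44, and Mmp12 is the macrophage elastase. Nrp2, followed beside them, is a co-receptor for class 3 semaphorins and for VEGF-C.

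In the GENCODE vM21 annotation of GRCm38, Gpnmb lies at chr6:49036546-49070929 (plus strand), Lpl at chr8:68880491-68907448 (plus), Trem2 at chr17:48346401-48354147 (plus), Spp1 at chr5:104435118-104441050 (plus) and Fabp5 at chr3:10012548-10016607 (plus). Apoe lies at chr7:19696109-19699188 (minus), Cd36 at chr5:17781690-17888801 (minus), Lgals3 at chr14:47367751-47386160 (plus), Cd9 at chr6:125460266-125494791 (minus), Mmp12 at chr9:7344381-7369499 (plus) and Nrp2 at chr1:62703285-62818695 (plus). The libraries read the 3′ ends of transcripts, so the counts are of whole genes and do not separate isoforms.

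RefSeq promoter windows (GRCm38.p6, 250 bases before to 50 after a transcription start) were at hand for 8 of the 10 genes, in 12 windows. The AP-1 motif TGANTCA, which reads the same on both strands, was in a window of 3 genes: Gpnmb, 9 bases after the start, Trem2, 9 bases before it, and Mmp12, 44 bases before the second of its start sites. It was in 7.81% of 32851 RefSeq promoters of the same length. Here and below such shares are per single window, whereas genes are counted over any of their windows. The 3 windows shown are those with an AP-1 match. An Apoe window with no match is shown because Apoe parted from the others between macrophage clusters. Among classes of at least 20 cells, Gpnmb, Trem2, Mmp12 and also Apoe were highest in tumour macrophages, so the match does not follow that level. Capitals mark every motif found.
Gpnmb promoter, chr6:49036268-49036567, plus strand: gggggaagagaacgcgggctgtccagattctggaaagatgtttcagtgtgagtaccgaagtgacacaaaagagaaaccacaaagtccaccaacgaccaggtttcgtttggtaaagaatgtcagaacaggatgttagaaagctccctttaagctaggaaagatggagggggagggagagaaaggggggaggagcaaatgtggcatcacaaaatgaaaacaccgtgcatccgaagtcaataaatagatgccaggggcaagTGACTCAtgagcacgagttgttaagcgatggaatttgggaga
Trem2 promoter, chr17:48346151-48346450, plus strand: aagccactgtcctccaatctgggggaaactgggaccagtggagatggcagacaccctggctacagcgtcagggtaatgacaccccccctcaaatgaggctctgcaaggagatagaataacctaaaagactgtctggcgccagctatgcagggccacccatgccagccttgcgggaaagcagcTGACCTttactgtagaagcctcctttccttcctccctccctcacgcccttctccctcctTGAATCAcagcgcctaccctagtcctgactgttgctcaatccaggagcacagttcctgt
Mmp12 promoter, second window, chr9:7347124-7347423, plus strand: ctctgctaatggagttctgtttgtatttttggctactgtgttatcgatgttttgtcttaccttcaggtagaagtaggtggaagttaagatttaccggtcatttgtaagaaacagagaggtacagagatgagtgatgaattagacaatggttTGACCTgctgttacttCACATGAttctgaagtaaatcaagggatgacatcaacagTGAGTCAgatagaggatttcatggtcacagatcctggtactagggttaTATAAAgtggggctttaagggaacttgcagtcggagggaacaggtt
Apoe promoter, first window, chr7:19699139-19699438, minus strand: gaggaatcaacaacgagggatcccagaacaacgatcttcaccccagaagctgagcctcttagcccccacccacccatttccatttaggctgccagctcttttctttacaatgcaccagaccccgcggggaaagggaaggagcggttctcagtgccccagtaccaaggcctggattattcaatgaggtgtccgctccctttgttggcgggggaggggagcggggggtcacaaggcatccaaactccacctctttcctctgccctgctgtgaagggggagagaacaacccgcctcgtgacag
Besides AP-1, the capitals are the nuclear receptor motif AGGTCA on the opposite strand of the Trem2 and Mmp12 windows, and the M-box TCATGTG on the opposite strand and TATAAA on the same strand of the Mmp12 window. AGGTCA on either strand was in windows of 3 genes (with Cd36; 16.3% of all promoters), the M-box in 1 (3.77%), TATAAA in 3 (Spp1, Apoe and Mmp12; 13.6%) and the PU.1 motif GAGGAAGT in 2 (Spp1 and the first Mmp12 window; 3.20%). The E-box CACGTG, which reads the same on both strands, was in none of the 12 windows (7.15%). Where 2 motifs lay in 1 window they did not overlap, other than TATAAA on the 2 strands of the second Apoe window. A match is a description of letters, and binding was not measured.

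The tumour library held 12427 cells with a median of 9161 UMIs and the lymph node library 11617 cells with a median of 2630. After limits on genes, mitochondrial UMIs and doublets, 8756 and 9689 cells were kept, and 40 clusters were formed without the 10 genes or Nrp2, of which 32 were named from fixed marker genes. A named class is one whose cells resemble the type by its markers (macrophage-like and so on), and is given by the plain name from here on. The tumour classes were 6120 cancer cells, 598 macrophages, 574 T cells, 402 monocytes, 278 neutrophils, 105 fibroblasts, 74 pericytes, 47 endothelial cells, 37 dendritic cells and 35 NK cells. The lymph node classes were 4592 B cells, 3688 T cells, 622 cancer cells, 203 dendritic cells, 191 endothelial cells, 83 plasma cells, 70 NK cells, 66 plasmacytoid dendritic cells and 26 neutrophils, while only 13 macrophages and 13 monocytes were found. The libraries shared 47 cell barcodes, of which 31 were kept in both. The unnamed clusters held 471 tumour and 119 lymph node cells (5.38% and 1.23% of kept cells).

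In the primary tumour, 5 of the 10 genes (Gpnmb, Lpl, Trem2, Apoe and Mmp12) had their highest level in macrophages, and the next tumour class was monocytes for each of them. Levels are UMIs of the gene per 1000000 UMIs of the class (CPM), with exact 95% Poisson intervals for counting error. A gene was called higher where its CPM was at least 2-fold that of the other class, with 0.5 UMI added to each sum, and the share of genes called is given over all genes with at least 50 UMIs in the classes compared. By this rule 9 of the 10 genes were higher in tumour macrophages than in tumour cancer cells, where 17.3% of 11680 genes were called. The median log2 ratio of the 10 genes was 5.31 and that of all genes was -0.41. The list was chosen for macrophages, so this count is given as a description.

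**Figure D1:**
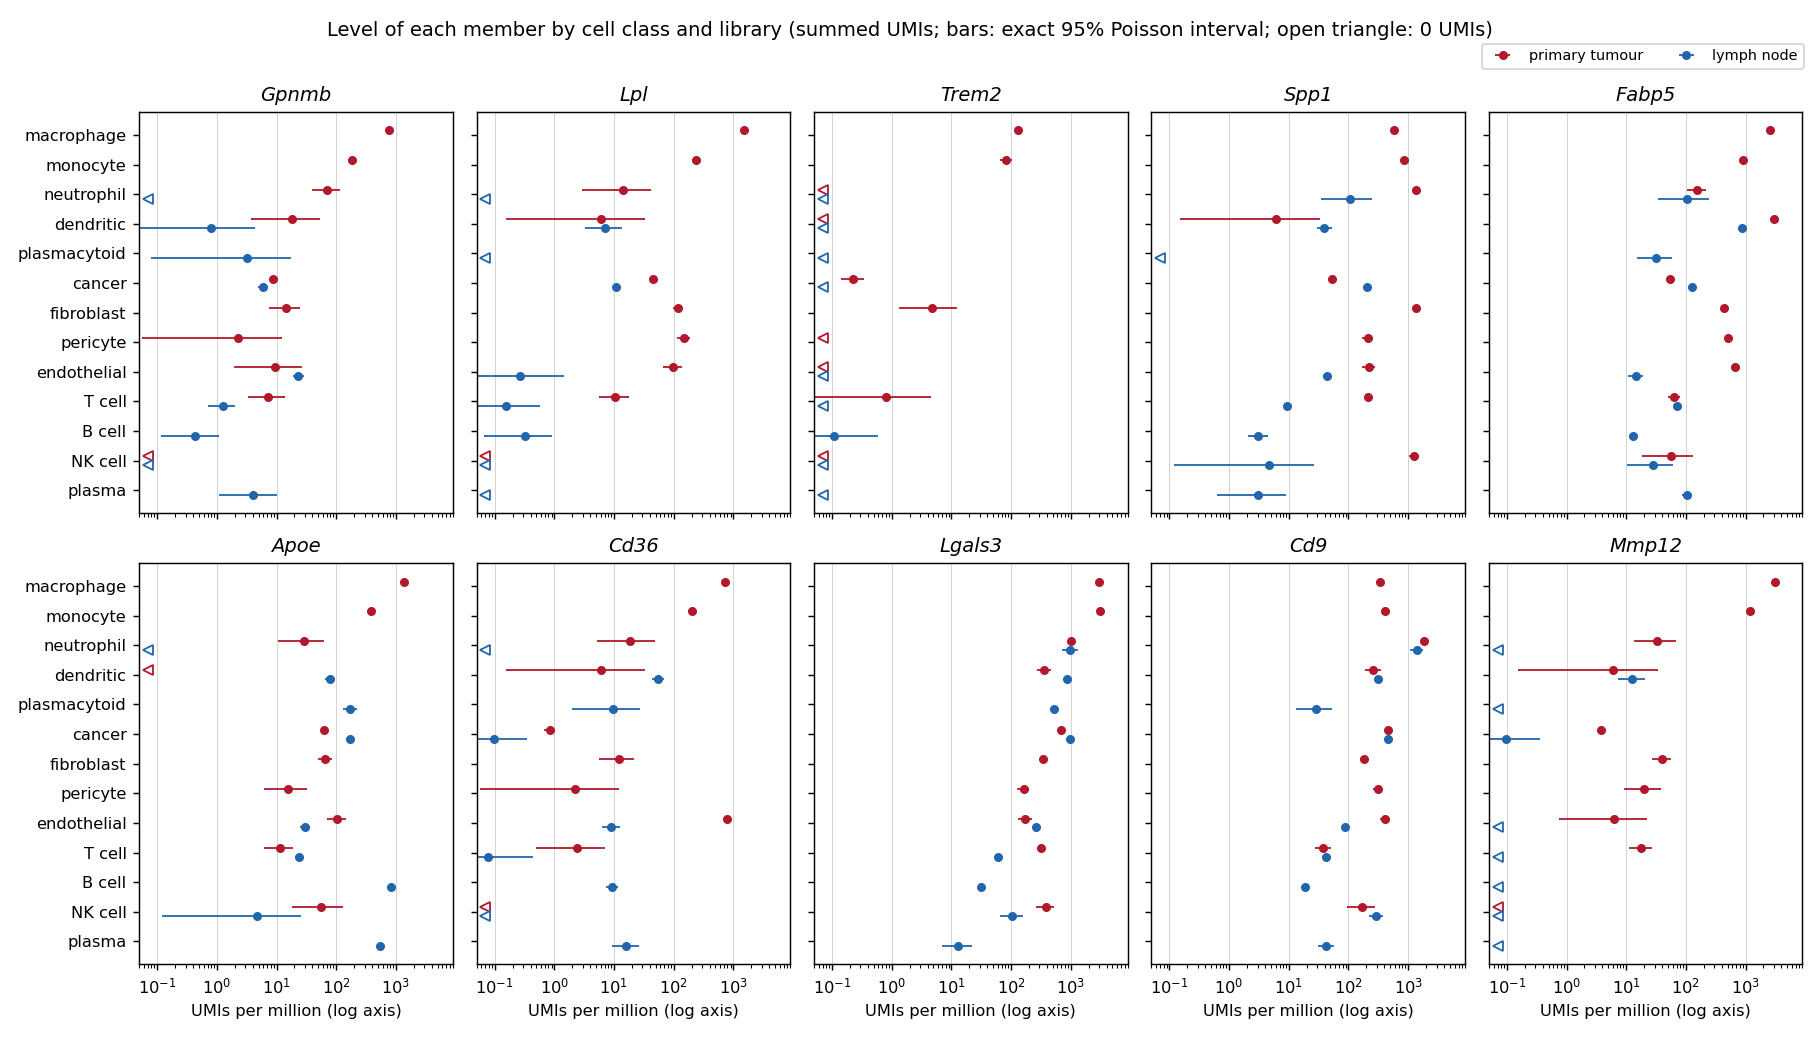
Level of each of the 10 genes in the cell classes of the primary tumour (red) and the lymph node (blue), in CPM on a log axis, with bars for the exact 95% Poisson interval and open triangles where no UMI was found. Gpnmb, Lpl, Trem2 and Mmp12 were highest in tumour macrophages with tumour monocytes next, whereas Spp1, Cd9 and Lgals3 were as high or higher in other classes.

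Among the receptors and the lysosomal protein, Gpnmb stood at 777 CPM (743 to 811) in tumour macrophages, 183 in monocytes, 70.9 in neutrophils, 18.1 in dendritic cells, 14.3 in fibroblasts, 9.33 in endothelial cells and 8.61 in cancer cells. Trem2 stood at 129.8 CPM (116 to 144) in macrophages and 82.7 in monocytes. It had no UMI in tumour neutrophils, dendritic cells or endothelial cells, and in cancer cells 22 UMIs gave 0.226 CPM. Trem2 was thus nearly limited to macrophages and monocytes, and their intervals did not overlap. Cd36 was as high in tumour endothelial cells, 793 CPM (698 to 896), as in macrophages, 728 CPM (696 to 762), which is the place a fatty acid transporter is known to hold in capillaries. The macrophage level was 470, 455 and 386 CPM with doublets kept, with no upper limit on genes and with separate clustering. These lie below the endothelial level of the main setting, and no endothelial level is given for the other settings. Cd36 was next in monocytes at 207 CPM and stood at 0.834 CPM in cancer cells.

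Among the lipid handling genes, Lpl stood at 1497 CPM (1450 to 1544) in tumour macrophages, 236 in monocytes, 149 in pericytes, 118 in fibroblasts, 96.4 in endothelial cells and 44.9 in cancer cells. The macrophage level of Lpl was 832, 768 and 689 CPM with doublets kept, with no upper limit on genes and with each library clustered on its own. Fabp5 was highest in the 37 tumour dendritic cells, 2963 CPM (2706 to 3237), then in macrophages, 2570 CPM (2509 to 2632), monocytes at 902 and endothelial cells at 656. The dendritic and macrophage intervals of Fabp5 did not overlap in the main setting. The macrophage level was 3121 CPM with doublets kept and 3080 CPM with no upper limit on genes. No dendritic level is given for those settings, so the order of the classes there was not shown. Apoe stood at 1355 CPM (1311 to 1400) in tumour macrophages and 388 in monocytes, with 62.7 in cancer cells, 65.6 in fibroblasts and 28.4 in neutrophils. The macrophage level of Apoe was 2728, 2559 and 2031 CPM in the same 3 settings. Of the 33 Apoe UMIs of tumour endothelial cells 28 were in 1 cell, and the endothelial level was 103 CPM with that cell and 16.0 without it. No Apoe UMI was found in tumour dendritic cells.

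Among the secreted and surface genes, Mmp12 stood at 3108 CPM (3041 to 3177) in tumour macrophages and 1187 in monocytes, and at 39.4 or less in every other tumour class named here. Lgals3 was alike in monocytes, 3064 CPM (2949 to 3183), and macrophages, 3014 CPM (2948 to 3082), with 1021 in neutrophils and 682 in cancer cells. Cd9 was highest in tumour neutrophils, 1815 CPM (1638 to 2006), followed by cancer cells at 453, monocytes at 408, endothelial cells at 407 and macrophages at 335. The macrophage level was 180.5, 200.6 and 220.2 CPM for Cd9 and 1827, 1911 and 1940 CPM for Mmp12 with doublets kept, with no upper limit on genes and with each library clustered on its own. Lgals3 therefore did not separate macrophages from monocytes, and Cd9 was lower in macrophages than in neutrophils and monocytes.

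Spp1 was higher in fibroblasts and neutrophils of the tumour than in its macrophages. Its level was 1360 CPM (1282 to 1441) in fibroblasts, 1343 (1191 to 1508) in neutrophils, 839 in monocytes, 581 (552 to 611) in macrophages, 218 in endothelial cells and 52.9 in cancer cells. The fibroblast and neutrophil intervals overlapped. The macrophage level was 874 CPM with doublets kept and 969 CPM with no upper limit on genes. In neither of these settings was Spp1 called higher in macrophages than in monocytes. It was called so with a mitochondrial limit of 10% and with separate clustering, so its order against monocytes was not stable. The fibroblast level came from 1 of 2 fibroblast clusters: it was 3858 CPM in the 48 cells led by Thbs4, Cilp and Lrrc15, and 157 CPM in the other 57 cells. Single cells carried much of Spp1 in small classes, with 64 of 70 UMIs of endothelial cells in 1 cell (19.2 CPM without it), 62 of 114 UMIs of NK cells (1269 CPM with it and 624 without) and 79 of 95 UMIs of pericytes. In fibroblasts the top cell held 229 UMIs, and the level without it was 1098 CPM. In macrophages the 59 cells with most Spp1 held 84.4% of its UMIs. Among neutrophils, Spp1 was 1626 CPM in the 194 cells of the Ccl3-led cluster and 722 in the other 84 cells, whereas Cd9 was 1799 and 1851 CPM.

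Set against cancer cells, Gpnmb was 90.2-fold higher in macrophages (83.2 to 97.9) and Lpl 33.3-fold higher (31.9 to 34.8). Trem2, Cd36 and Mmp12 were 573-fold, 873-fold and 836-fold higher, folds that rest on 22, 81 and 361 UMIs in 6120 cancer cells. Fabp5 was 47.0-fold, Apoe 21.6-fold, Spp1 11.0-fold and Lgals3 4.42-fold higher, and Cd9 was 1.35-fold lower in macrophages. Of the 10 genes only Cd9 was not called.

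Against tumour monocytes, 6 of the 10 genes were called higher in macrophages, where 9.25% of 6151 genes were called, and the median log2 ratio was 1.45 for the 10 genes and 0.18 for all genes. The 6 were Lpl (6.33-fold, 5.50 to 7.31), Gpnmb (4.25-fold), Cd36 (3.52-fold), Apoe (3.49-fold), Fabp5 (2.85-fold) and Mmp12 (2.62-fold). Trem2 was 1.57-fold higher (1.21 to 2.05), Lgals3 was 0.984-fold (0.941 to 1.03), Cd9 was 1.22-fold lower and Spp1 was 1.44-fold lower in macrophages. Spp1 turned direction in other settings, and was called higher in macrophages than in monocytes with a mitochondrial limit of 10% and with each library clustered on its own. The monocytes were themselves split, with each of the 10 genes higher in cluster M1 (315 cells, led by genes that include Rsad2 and F13a1) than in M3 (87 cells, led by Chil3 and Vcan). Mmp12 was 1546 CPM in M1 and 47.95 in M3, Spp1 1088 and 47.95, Lpl 302 and 28.8, Gpnmb 229 and 33.6, and Apoe 398 and 355. The intervals of the 2 clusters overlapped for Apoe and Trem2 and for none of the other genes. Of the macrophage markers, C1qa, C1qb, C1qc, Mrc1 and Ms4a7 were also higher in M1, whereas Adgre1, Csf1r and Cd68 were higher in M3. Their part in the split was not tested. With doublets kept or no upper limit on genes the count of 6 was again 6, with Trem2 called and Cd36 not. Nrp2 was 3.66-fold higher in macrophages than in monocytes (2.82 to 4.83).

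Against the other tumour classes, macrophages had 8 of the 10 genes higher than fibroblasts (17.3% of 6762 genes called), 8 higher than endothelial cells (18.8% of 6130) and 8 higher than neutrophils (45.6% of 5698). Against neutrophils the background share was high, so the count of 8 says less there. Trem2 was at least 13.9-fold higher than in endothelial cells and at least 9.15-fold higher than in neutrophils, bounds taken against 3 UMIs over the class where none was found. Spp1 was 2.34-fold lower in macrophages than in fibroblasts and 2.31-fold lower than in neutrophils, and Cd9 was 5.43-fold lower than in neutrophils. Fibroblasts had 6 of the 10 genes higher than cancer cells (18.5% of 11531 genes called): Spp1 (25.7-fold), Fabp5 (8.01-fold), Mmp12 (10.6-fold), Lpl (2.63-fold), and Trem2 and Cd36 on 4 and 10 UMIs. They had 2 called lower, a direction for which no share of all genes is given. These were Cd9 (184 CPM, and 453 in cancer cells) and Lgals3 (340 CPM, and 682 in cancer cells). Macrophage markers summed to 131 CPM in fibroblasts and 208 CPM in neutrophils, and their part in these values was not tested.

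The level per cell and the number of cells give a different picture of where the transcripts lay. Macrophages were 6.83% of the kept tumour cells and held 79.7% of the Mmp12 UMIs, 71.9% of Trem2, 67.4% of Cd36, 61.5% of Gpnmb, 43.2% of Fabp5, 42.7% of Lpl, 33.4% of Apoe, 15.6% of Spp1, 9.87% of Lgals3 and 1.86% of Cd9. The median over the 10 genes was 43.0%, and it was 20.5% with doublets kept, 21.6% with no upper limit on genes and 25.9% with each library clustered on its own. The cancer cells, with 6120 cells and a median of 14061 UMIs, held 93.3% of the Cd9 UMIs, 82.6% of Lgals3, 57.1% of Apoe, 52.6% of Spp1, 47.5% of Lpl and 34.0% of Fabp5. Only 4.64% of Trem2, 3.52% of Mmp12 and 2.85% of Cd36 UMIs lay in cancer cells. Monocytes held 15.2% of Trem2 and 10.1% of Mmp12, endothelial cells 8.99% of Cd36 and fibroblasts 11.7% of Spp1.

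**Figure D2:**
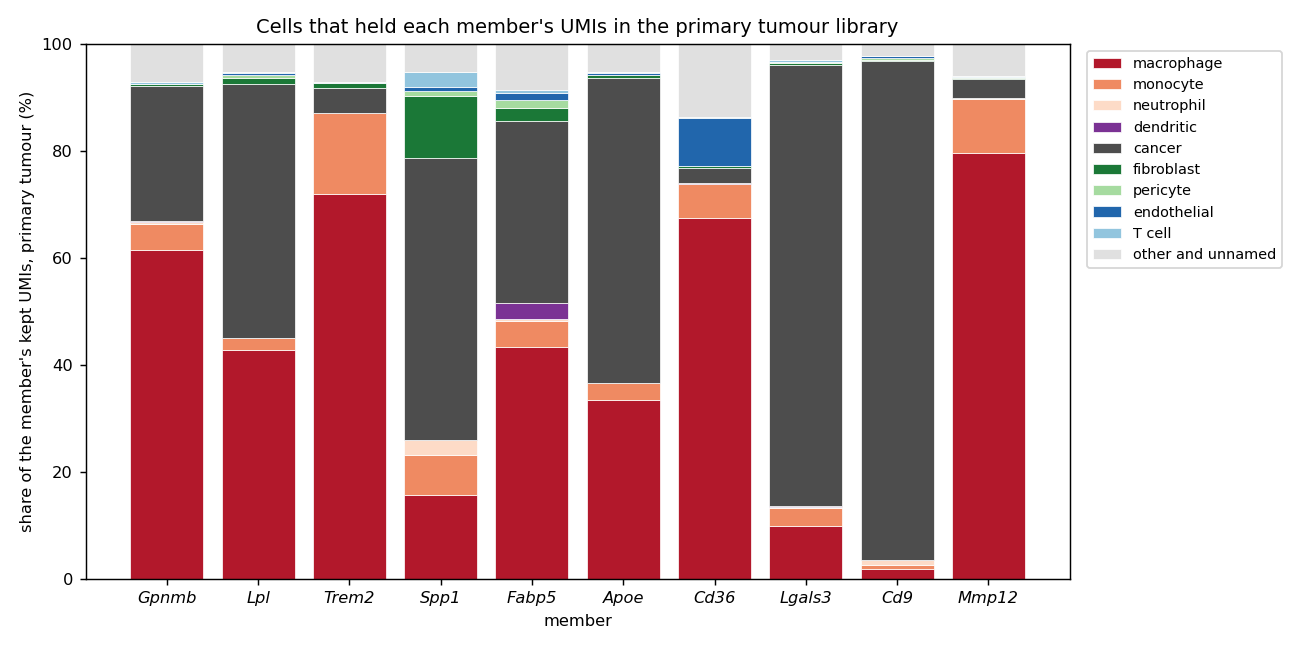
Stacked bars give, for each of the 10 genes, the share of its UMIs in kept primary tumour cells that lay in each cell class, in percent, with classes not named in the legend and unnamed clusters in grey. In the class used here macrophages held most of the Mmp12, Trem2, Cd36 and Gpnmb UMIs, and cancer cells most of the Cd9, Lgals3, Apoe and Spp1 UMIs.

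In single macrophages the genes differed in how many cells carried them. With each cell thinned to 1000 UMIs (567 of 598 macrophages, 444 of 574 tumour T cells), a UMI was expected in 79.3% of macrophages for Lgals3, 62.3% for Fabp5, 47.7% for Mmp12, 42.7% for Lpl, 34.5% for Apoe, 34.0% for Cd36, 29.0% for Gpnmb, 25.1% for Cd9, 17.7% for Spp1 and 9.95% for Trem2. In tumour T cells, which should lack most of these transcripts, the shares were 22.4% for Lgals3, 5.54% for Spp1, 4.36% for Fabp5, 2.42% for Cd9, 1.42% for Mmp12, 1.23% for Apoe, 1.00% for Lpl, 0.796% for Gpnmb, 0.158% for Cd36 and 0 for Trem2. All 10 genes lay above their T cell share, and Lgals3 and Spp1 came nearest to it. Without thinning, at a median of 3741 UMIs in macrophages and 1559 in T cells, the macrophage shares were 93.3% for Lgals3, 79.8% for Fabp5, 59.9% for Mmp12, 59.5% for Lpl, 55.4% for Cd9, 54.8% for Cd36, 47.0% for Apoe, 45.7% for Gpnmb, 32.3% for Spp1 and 29.3% for Trem2.

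The number of the 10 genes with a UMI varied between macrophages, and depth limits it, since 0 UMIs does not show that a gene is off. A macrophage carried a mean of 5.57 of the 10 genes (3.82 after thinning), 20 of 598 cells carried all 10, 154 (25.8%) carried at least 8 and 125 (20.9%) at most 3. The median count per cell was 7 UMIs for Lgals3 (quartiles 3 and 14, most 177), 4 for Fabp5 (1 and 11, most 188), 2 for Mmp12 (0 and 13, most 180), 1 for Lpl (0 and 6, most 99), 1 for Cd36 and 1 for Cd9. The median was 0 for Gpnmb, Trem2, Spp1 and Apoe, although single cells held up to 78, 10, 173 and 118 UMIs of these.

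The macrophage class was made up of 3 clusters, and the genes were split between them. Cluster M2 (269 cells) was led by Ccl8, Mrc1 and C1qc, with Apoe itself among its leading genes. Cluster M7 (221 cells) was led by Ppfibp2, Acpp, Hvcn1 and Ly6i, with Mmp12, Lpl and Gpnmb themselves among its leading genes. Cluster M5 (108 cells) was led by Mgl2, H2-DMb2 and Dcstamp with class II histocompatibility genes. The 10 genes did not enter the clustering, but clusters rest on genes that move with them, so the differences below are descriptions. The macrophage markers Adgre1, Cd68 and Csf1r stood at 199, 322 and 255 CPM in M2 and 317, 318 and 283 CPM in M7, whereas C1qa was 1329 CPM in M2 and 186 in M7, and Mrc1 was 823 and 67.7. Cancer cell markers summed to 220, 217 and 209 CPM in M2, M7 and M5, against 4364 in cancer cells. Dendritic markers summed to 8.94, 40.4 and 625 CPM. None of the fixed macrophage markers was among the leading genes of M7 or M5, which were named from 8 and 7 raised markers. The names of the clusters depended on the settings. M7 stayed together but unnamed with doublets kept, with no upper limit on genes or with each library clustered on its own, and the class then had more Apoe and less Lpl, as given above. Of the 108 M5 cells, 5 were named macrophages with doublets kept, 1 with a mitochondrial limit of 10% and 2 with no upper limit on genes, and with the limit of 10% 97 of the 269 M2 cells were unnamed.

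**Figure D3:**
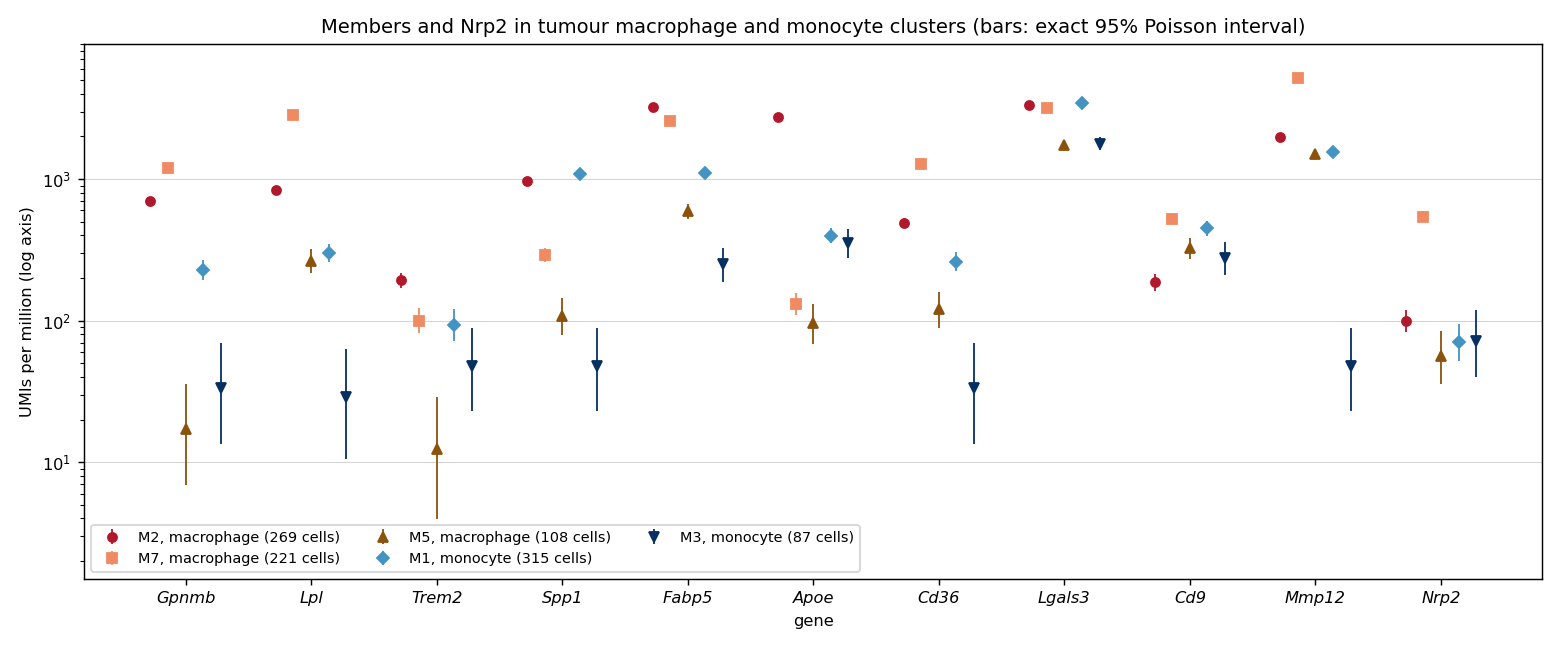
Level of the 10 genes and Nrp2 in the tumour macrophage clusters M2, M7 and M5 and the monocyte clusters M1 and M3, in CPM on a log axis, with bars for the exact 95% Poisson interval. Lpl, Cd36, Cd9, Mmp12 and Nrp2 were higher in M7 than in M2, Apoe and Spp1 were higher in M2, and M5 and M3 were low for most of the genes.

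Lpl, Cd36, Cd9, Mmp12 and Gpnmb were higher in M7 than in M2. Lpl was 2821 CPM in M7, 839 in M2 and 263 in M5, and it was found in 74.2%, 60.2% and 27.8% of their cells. Cd36 was 1279, 486 and 121 CPM, and Cd9 was 523, 186 and 325 CPM, in M7, M2 and M5. Mmp12 was 5163, 1986 and 1503 CPM, and Gpnmb was 1189, 696 and 17.2 CPM. Gpnmb set M5 apart most clearly, with a UMI in 4 of its 108 cells. M7 over M2, the folds were 3.36 for Lpl, 2.81 for Cd9, 2.63 for Cd36, 2.60 for Mmp12 and 1.71 for Gpnmb.

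Apoe, Spp1 and Trem2 were higher in M2 than in M7. Apoe was 2755 CPM in M2, 131 in M7 and 96.0 in M5, which is 21.0-fold lower in M7 than in M2 (17.6 to 25.2). A UMI of Apoe was found in 78.1% of M2 cells and 24.0% of M7 cells, with a median of 5 and 0 UMIs. Spp1 was 971, 291 and 108 CPM in M2, M7 and M5, and Trem2 was 193, 100 and 12.3 CPM, 0.519-fold in M7 over M2. Fabp5 was 3224, 2570 and 590.4 CPM and Lgals3 3312, 3162 and 1754 CPM, and both lay within 2-fold between M2 and M7. By the 2-fold rule 4 of the 10 genes were higher in M7 (Lpl, Cd36, Cd9 and Mmp12), where 9.13% of 4986 genes were called, and 2 were higher in M2 (Apoe and Spp1), where 10.7% were called.

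Pairs of the genes were followed in single macrophages of all 3 clusters together, so that differences between the clusters move these ratios too. After thinning to 1000 UMIs, macrophages had Lpl with Cd36 1.59 times as often as the product of the separate shares, Gpnmb with Cd36 1.58 times, Gpnmb with Lpl 1.504 times and Trem2 with Spp1 1.84 times. Apoe stood at 0.631 with Cd9, 0.775 with Cd36, 0.822 with Lpl, 0.871 with Mmp12, 0.961 with Gpnmb and 0.987 with Lgals3, and at 1.15 with Spp1, 1.16 with Fabp5 and 1.32 with Trem2. Across 598 single macrophages, which share a library and differ in depth, the correlation of each gene with the sum of the other 9 was 0.58 for Gpnmb, 0.53 for Cd36, 0.53 for Lgals3, 0.49 for Lpl, 0.48 for Fabp5, 0.47 for Mmp12, 0.41 for Trem2, 0.40 for Spp1, 0.22 for Cd9 and -0.06 for Apoe.

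Nrp2 was 260.4 CPM (241 to 281) in tumour macrophages, 441 in tumour dendritic cells, 193 in endothelial cells, 86.2 in cancer cells, 86.0 in fibroblasts, 71.2 in monocytes and 18.9 in neutrophils. Within macrophages it was 544 CPM in M7, 100 in M2 and 56.6 in M5, a 5.44-fold difference between M7 and M2 (4.46 to 6.67). A UMI of Nrp2 was found in 72.0% of M7, 32.7% of M2 and 12.96% of M5 cells. Thinned to 1000 UMIs, the share was 39.5%, 10.8% and 4.24%, and it was 0.586% in tumour T cells. The genes had been listed with Nrp2 in this cluster in view.

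Over all thinned macrophages, Nrp2 was found with a listed gene more often than the product of their shares for 7 of the 10 genes. The ratio was 1.37 for Cd36 (9.12% of cells with both, 6.64% from the product), 1.35 for Gpnmb (7.65% and 5.67%), 1.33 for Lpl (11.1% and 8.33%), 1.29 for Cd9, 1.13 for Mmp12, 1.00 for Lgals3 and 1.00 for Trem2. It was 0.987 for Fabp5, 0.809 for Spp1 and 0.737 for Apoe (4.96% and 6.74%). By the same rule 55.0% of 5474 genes were above the product in these cells, with a median ratio of 1.03 and quartiles of 0.881 and 1.19, so ratios above 1 were common among all genes. The interval of the joint share held the product for all but Lpl and Cd36 of the 7. It takes cells of 1 library as independent and the product as fixed, so this is no test. Lpl, Cd36 and Nrp2 were each higher in M7 than in M2. Within M7 8 of 10 were above the product (51.8% of 2786 genes), with ratios of 0.885 to 1.14, and within M2 2 of 10 (Apoe and Cd9, against 48.4% of 3244 genes), with ratios of 0.859 to 1.34. In M5 4.24% of the 106 thinned cells had Nrp2, which leaves too few cells with both genes to read a ratio, and the ratios ran from 0 to 3.22. The count of 7 was 4 with doublets kept and 3 with no upper limit on genes, and it was 7 with each library clustered on its own. M7 was outside the named class in all 3 of these settings.

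**Figure D4:**
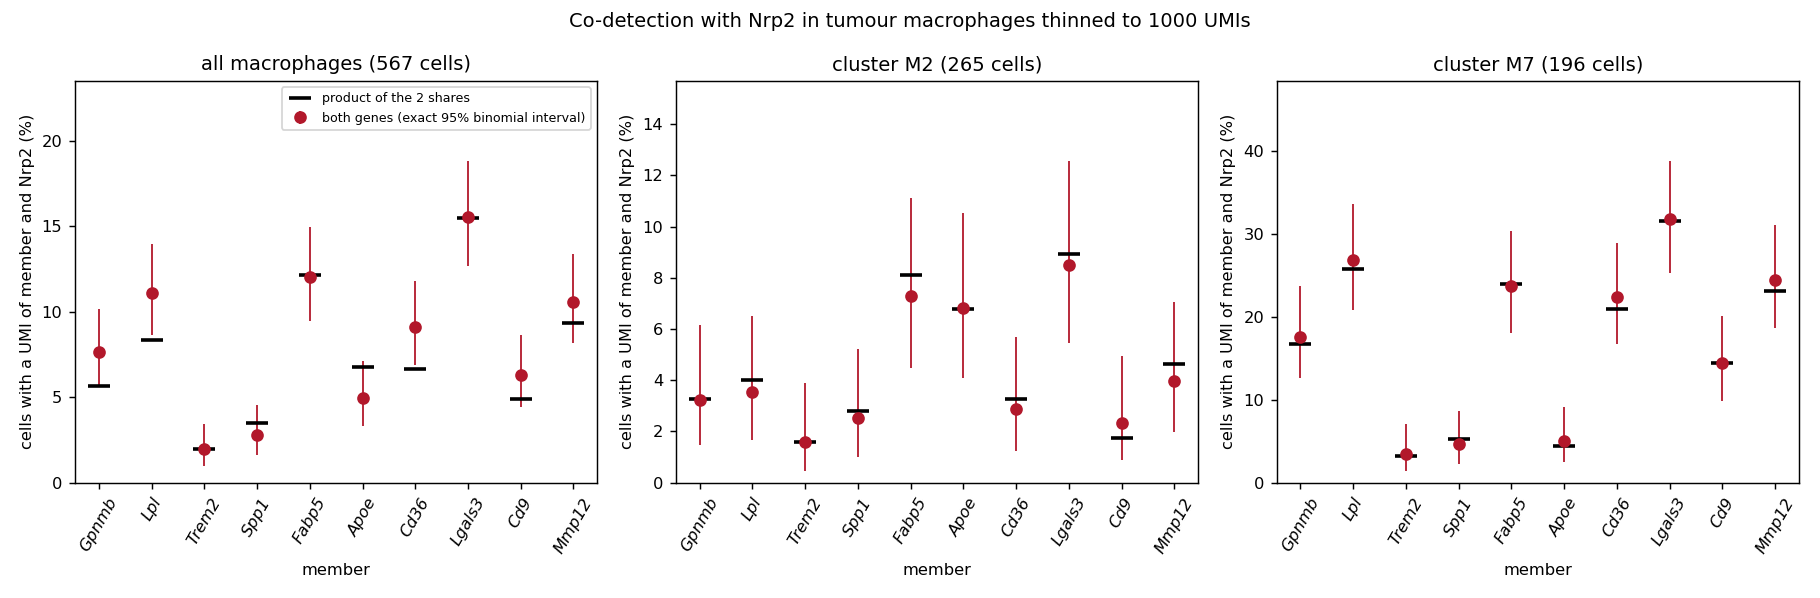
Share of tumour macrophages, thinned to 1000 UMIs, with a UMI of both Nrp2 and a listed gene (points, with exact 95% binomial intervals) beside the product of the separate shares (black lines), in percent, over all 567 macrophages and within clusters M2 and M7. Over all macrophages the points of Cd36, Gpnmb and Lpl lay above the product and that of Apoe below it, and within M7 points and lines lay close together.

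Over all macrophages, cells that carried more of the 10 genes also carried Nrp2 more often, and they were deeper. Nrp2 was found in 20.8% of the 125 macrophages with 0 to 3 of the genes (130.3 CPM, median 2206 UMIs), 42.2% of the 249 with 4 to 6 (237 CPM, 3473 UMIs) and 58.0% of the 224 with 7 to 10 (305 CPM, 5626 UMIs). The thinned shares were 11.3%, 19.9% and 23.1%. Within M7 the Nrp2 levels were 388, 583 and 544 CPM and the thinned shares 23.7%, 42.6% and 41.3%. Within M2, on 28, 120 and 121 cells, the levels were 104, 131 and 79.6 CPM, the shares 21.4% (8.30 to 41.0), 34.2% and 33.9%, and the thinned shares 15.4%, 12.1% and 8.59%, so that these measures gave different orders in M2. Cells with a Gpnmb UMI had 322 CPM of Nrp2 and those without had 174 over all macrophages, and the levels were 546 and 537 CPM within M7 and 91.0 and 113 CPM within M2. Cells with an Apoe UMI had 177 CPM of Nrp2 and those without had 338, and the levels were 539 and 545 CPM within M7 and 94.6 and 118 CPM within M2.

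Further genes of the pathway, from lists of 73 genes, were set between M7 and M2, where 58 had at least 50 UMIs. Of these 58, 7 were called higher in M7 and 14 higher in M2 (9.13% and 10.7% of all genes), so the M7 count is near the background, and the median log2 ratio (M7 over M2) was -0.34 against 0.12 for all genes. Among 15 genes of lipid uptake, storage and export, 1 was higher in M7 and 4 in M2: the lysosomal acid lipase Lipa had a log2 ratio of 1.63, and Soat1, which esterifies cholesterol, 0.89, whereas the cholesterol exporter Abca1 had -1.23 and Axl, a receptor kinase for dying cells, -1.58. Among 15 lysosomal genes, 2 were higher in M7, the cathepsin Ctsk (1.42) and the phosphatase Acp5 (1.35), and 1 in M2, the cathepsin Ctsl (-1.65), while the cathepsin Ctsb had -0.69. Among 7 genes of Trem2 signalling and the state it supports, Clec7a (2.50), the beta-glucan receptor, and Itgax (1.87), the integrin CD11c, were higher in M7 and none in M2, with the adaptor Hcst at -0.28 and the growth factor Igf1 at -0.76. Among 10 transcription factors, 2 were higher in M7 and 1 in M2. The 2 higher in M7 were Bhlhe41 (2.96) and Mitf (1.72), a regulator of lysosomal genes and Gpnmb. Maf, at -0.81, was not called. Among 5 genes of resident macrophages, 4 were higher in M2, with the folate receptor Folr2 at -4.37, the selenium carrier Selenop at -5.02, the scavenger receptor Stab1 at -1.65 and the chemokine Pf4 at 0.18. Among 6 receptors and ligands of the secreted genes, 4 were higher in M2, among them the integrin Itgav (-1.45), which binds Spp1, and the syndecan Sdc4 (-1.74), with Itgb1 at -0.30 and Lgals3bp at -0.44. The list of resident macrophage genes had the lowest median, -4.10, and that of Trem2 signalling stood at 0.07, near the median of all genes.

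**Figure D5:**
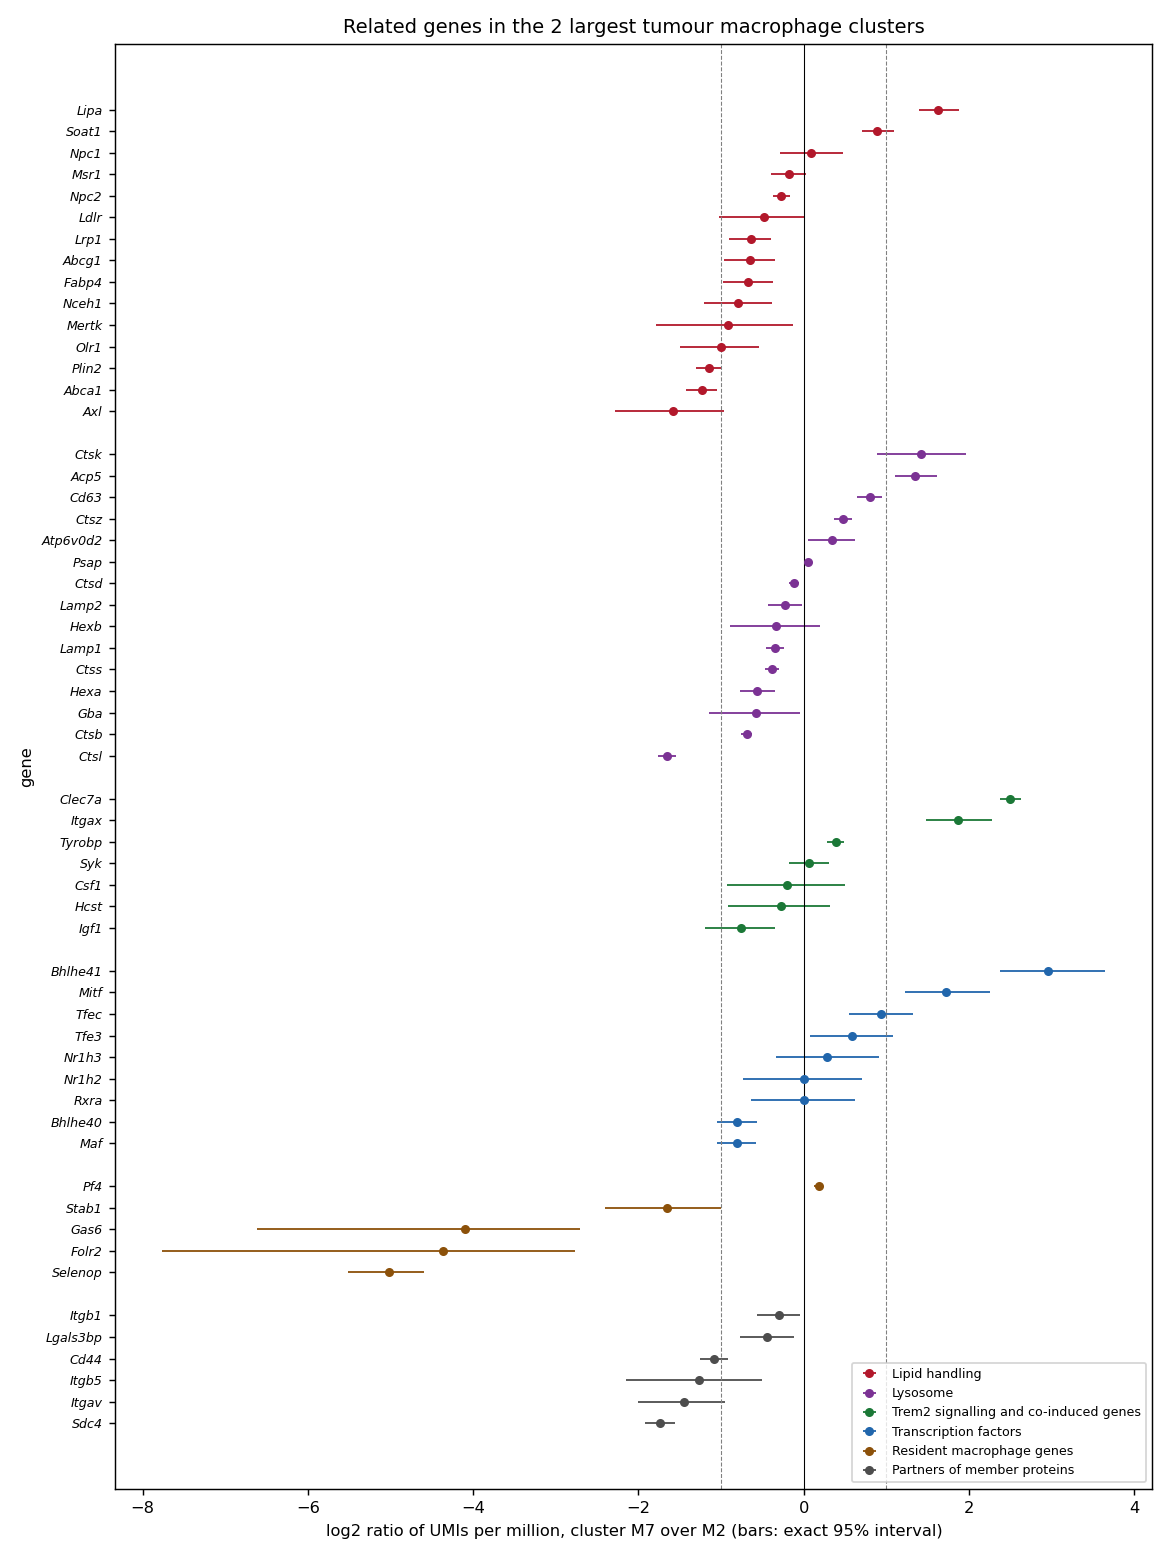
Log2 ratio of CPM in tumour macrophage cluster M7 over M2 for the related genes reported here that had at least 50 UMIs, coloured by list, with bars for the exact 95% interval and dashed lines at 2-fold. Resident macrophage genes such as Selenop and Folr2 lay farthest towards M2, and Bhlhe41 and Clec7a farthest towards M7.

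Genes outside the list with the most similar pattern differed between classes and between cells. Over 19 class-by-library sums, which share 2 libraries and differ in depth, the genes with the highest correlation with the mean of the 10 genes were Pf4 (0.95), Lrp12 (0.93), Mrc1 (0.92), Mmp13, C3ar1, C1qa, Tfec, Adgre1 (0.91), Fam20c and Ccl9 (0.90), and Nrp2 was 417th of 11531 genes (0.60). Over 598 single macrophages the highest were Ctsd (0.56), Cd63 (0.55), Psap (0.53), Ctsb (0.50), Ctsl (0.50), Atp6v0d2 (0.49), Ftl1 (0.46), Creg1 (0.45), Prdx1 (0.43) and Npc2 (0.42), and Nrp2 was 177th of 2482 (0.18). Most of the second set are lysosomal genes, whereas the first holds macrophage markers.

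Unnamed tumour phagocyte clusters also held these genes. Cluster M4 (331 cells, led by Pou2f2, Lif and Ace) had Lgals3 at 1817 CPM, Fabp5 at 644, Cd36 at 349.7 and Gpnmb at 31.4, with Cd9 at 586, Apoe at 254, Mmp12 at 248, Spp1 at 148, Lpl at 73.2 and 8 UMIs of Trem2. Cluster M6 (37 cells) mixed macrophage markers with cancer cell markers (2242 CPM) and had Fabp5 at 2041, Lpl at 712, Apoe at 532, Gpnmb at 501 and Cd36 at 355 CPM, with Lgals3 at 1521, Mmp12 at 1161, Cd9 at 397, Spp1 at 229.7 and Trem2 at 65.2.

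Between the tissues, dendritic cells were the main myeloid class that could be compared. In the 37 tumour and 203 lymph node cells Fabp5 was 2963 and 860 CPM, 3.44-fold higher in the tumour (3.09 to 3.84). Lgals3 was 357 and 855 CPM, 2.40-fold lower in the tumour, Apoe had no UMI in the tumour and 79.4 CPM in the node, at least 4.38-fold lower, and Cd9 was 260 and 307 CPM. Fabp5, a fatty acid carrier, was the 1 gene of the 6 with at least 50 UMIs that was higher in the tumour. Cluster M0 held 35 of the 37 tumour cells, and the lymph node class was split between M0 (103 cells) and M8 (100 cells, led by Xcr1 and Clec9a). Within M0 Fabp5 was 3127 CPM in the tumour and 1640 in the node, a fold of 1.91 (1.70 to 2.13), Lgals3 was 0.932-fold and Cd9 1.18-fold. M8 carried the Lgals3 of the node, 1210 CPM, with Fabp5 at 319.9, Apoe at 109 and Cd36 at 68.6. Macrophage markers summed to 6.05 CPM in tumour dendritic cells (1 of 8 markers with a UMI) and 160.3 in node dendritic cells (8 of 8), and their part was not tested.

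By the 2-fold rule 3 of the 10 genes were called higher in tumour dendritic cells (11.0% of 3422 genes), of which Gpnmb rested on 3 and 1 UMIs and Trem2 on no UMI in either, so that only Fabp5 had counts to carry it. In the other direction 4 were called higher in the node (11.5%): Lgals3, Apoe, Cd36 (9.19-fold, 1.60 to 368) and Spp1 (6.56-fold, 1.13 to 264), the last 2 on 1 tumour UMI each. Nrp2 was 441 CPM in tumour and 210 in node dendritic cells, and within M0 461 and 417 CPM. The 13 lymph node macrophages, with 34062 UMIs in all, had 67 UMIs of Apoe, 66 of Mmp12, 44 of Lgals3, 34 of Lpl, 17 of Fabp5, 10 of Cd36, 4 of Cd9 and 1 each of Gpnmb, Trem2 and Spp1, too few cells for a comparison.

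In cancer cells 3 of the 10 genes were called higher in the lymph node than in the primary tumour, where 6.96% of 11599 genes were called, and 4 in the primary tumour, where 9.68% were. Spp1 was 202 CPM in the node and 52.9 in the tumour, 3.81-fold higher (3.66 to 3.97). Apoe was 171 and 62.7 CPM (2.74-fold) and Fabp5 129 and 54.7 CPM (2.36-fold). Lpl was 4.19-fold lower in the node (10.7 and 44.9 CPM), Mmp12 37.9-fold lower (2 and 361 UMIs, 10.4 to 315), Cd36 8.51-fold lower (2 and 81 UMIs, 2.28 to 71.5) and Trem2 at least 1.54-fold lower (0 and 22 UMIs). These 4 genes had their highest tumour levels in macrophages or endothelial cells. Of the macrophage markers, all but Cd68 and C1qb were also lower in node cancer cells, with Csf1r at 5.11 CPM in the tumour and 0.294 in the node, Mrc1 at 0.721 and 0, Adgre1 at 0.350 and 0.0490 and C1qa at 1.28 and 0.539, while Cd68 was 13.5 and 17.5. B cell markers summed to 0.824 CPM in tumour and 49.1 CPM in node cancer cells, and Apoe was 817 CPM in node B cells. The part of these other cells in the differences was not tested. Lgals3 was 964 and 682 CPM and Cd9 463 and 453 CPM, a fold of 1.02 (0.999 to 1.05).

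Different clusters held the cancer cells of the tissues, so the folds also compare clusters. Cluster 20 (led by Ppbp, Sp5 and Tff2) held 511 of the 622 node cells, with Spp1 at 219 CPM and a UMI in 96.7% of cells, Fabp5 at 133 and Apoe at 97.9 CPM. In the tumour, the 654 cells of cluster 6, led by Tff1, had Apoe at 241, Fabp5 at 147 and Spp1 at 113 CPM, and in the 2320 cells of cluster 4 Apoe was 63.4 CPM. In the 62 node cells of cluster 4 Apoe was 900 CPM, of which 348 of 1269 UMIs were in 1 cell. The Apoe and Fabp5 levels of tumour cluster 6 thus exceeded those of the main node cluster, whereas the Spp1 level of cluster 6 was below that of cluster 20.

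Endothelial cells of the 2 libraries were of different kinds by their markers, so the folds below do not compare 1 cell type between tissues. The node cells carried markers of high endothelial cells at 2905 CPM in sum, of which the tumour cells had no UMI, and endothelial markers summed to 1131 CPM in the node and 4971 in the tumour. Cd36, Fabp5 and Lpl were higher in the tumour cells. Cd36 was 793 CPM in 47 tumour cells and 8.95 in 191 node cells, 88.5-fold higher (61.7 to 131), and 33 of the 34 node UMIs were in 1 cell. Fabp5 was 656 and 14.5 CPM, 45.3-fold higher (33.5 to 62.1), and Lpl was 96.4 and 0.263 CPM on 31 and 1 UMIs (366-fold, 61.0 to 14914). Cd9 was 407 and 87.4 CPM (4.66-fold), Spp1 218 and 43.2 (5.04-fold, with the single cell named above) and Apoe 103 and 29.8 (3.45-fold, likewise). By the 2-fold rule 1 of the 10 genes, Gpnmb, was called higher in the node, at 23.2 CPM and 9.33 in the tumour. The share of all genes called in that direction is not given. Lgals3 was 264 CPM in the node and 171 in the tumour. In the tumour 8 of the 10 genes were called higher, where 22.9% of 7059 genes were called. Of these 8, 4 carry little weight. Trem2 had no UMI in either tissue, so that its call comes from the count of 0.5 added to each sum and is no difference, and Mmp12 had 2 UMIs in the tumour and 0 in the node. Without the tumour cell that held most of its UMIs, Spp1 was 19.2 CPM and Apoe 16.0 CPM in the tumour. Both lay below the level over all node cells, from which no cell was left out. Cluster 8.1, led by Plvap, Cdh5 and Gpihbp1, held the tumour cells, and cluster 21, led by Glycam1 and Fut7, held 189 of the 191 node cells. Of the 8 macrophage markers, Adgre1, C1qb, C1qc and Ms4a7 had no UMI in endothelial cells of either tissue, C1qa, Csf1r and Mrc1 had at most 2, and Cd68 stood at 6.22 CPM in the tumour and 108 in the node.

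Among the node classes of at least 20 cells, Apoe was highest in B cells. Its level was 817 CPM (799 to 836) in 4592 B cells, where 43.6% of cells had a UMI (33.5% after thinning), and 1521 CPM in the 65 cells of cluster 18.2, whose leading genes include the germinal centre genes Rgs13 and Mef2b, where 90.8% of cells had one. The B cell clusters 14 and 15 had Apoe at 832 and 694 CPM, and plasmacytoid dendritic cells at 170.4. In plasma cells 506 of 545 Apoe UMIs were in 1 cell, and the level was 549 CPM with it and 39.7 without. Node neutrophils had Cd9 at 1409 CPM and Lgals3 at 988, and the Cd9 interval overlapped that of tumour neutrophils.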

How the data were processed

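Cells of primary tumours and paired lymph nodes were sequenced in droplet 3′ libraries (10x Genomics), 1 per tissue. The deposited tables are raw UMI counts of 22620 genes, aligned by the authors to GRCm38 with Cell Ranger (2.1.1 in the submitters' processing notes, 5.0.0 in the file headers). The study's cell limits had not been applied to them. The 2 libraries held 173317475 and 122207852 UMIs.

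Cells were kept with 5% or less of their UMIs mitochondrial and with more than 200 but no more than 6000 genes detected (18.6% of tumour and 2.88% of node cells were over the mitochondrial limit). Scrublet in scanpy 1.11.5 removed 391 tumour cells. In the node it called none, which was taken as a failure, and the 616 cells above the 94th percentile of its score were removed. Counts were scaled to 10000 per cell and logged, scores of the Seurat 5.3.0 cell cycle genes were removed by regression, and cells of both libraries were clustered by the Leiden method on 30 principal components of 2000 variable genes per library, without the 10 genes, their related genes or Nrp2. Clusters that mixed types and the phagocytes were clustered again at resolution 0.5. A cluster was named where at least 3 fixed markers were raised and its leading genes did not go against the name. Doublets left over and free RNA were not modelled.

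The members and gene lists were chosen with earlier results of these data known. CPM are summed UMIs of a class. With 1 library per group no test was made: intervals are exact (Poisson for CPM, Clopper-Pearson for shares, conditional for ratios, 95%) and cover counting error only. Thinned shares are expectations over all draws of 1000 UMIs from a cell, and cells with fewer were left out. Of the related genes, the 2 highest and 2 lowest log2 ratios between clusters of each list were named, apart from 1 that is not reported here, and the 10 genes most like the list by Pearson correlation. The procedures were tested on simulated data. Alternatives were doublets kept, other cell limits, separate clustering, another resolution, the genes allowed into the clustering, other thinning, mean single-cell CPM, 200 UMIs for the background, and leaving out the top cell.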

Additional observations from a re-analysis of the deposited data

Results flagged for a closer look

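Signals of the 10 genes also lay in cells that the comparisons did not use. In the unnamed tumour phagocyte cluster M4 Gpnmb was 31.38 CPM and Cd36 349.7 CPM, and in the unnamed cluster M6, which also carried cancer cell markers, Gpnmb was 501.1 CPM and Cd36 354.9 CPM.

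Cells with over 6000 detected genes, which the study's limit leaves out, held 78.1% of all lymph node UMIs of Gpnmb, 72.56% of those of Lpl and 71.29% of those of Spp1. The 964 of these cells within the mitochondrial limit had Gpnmb at 14.84 CPM, Lpl at 12.48 CPM and Spp1 at 179.8 CPM, in which cancer cell markers summed to 3661 CPM and macrophage markers to 40.89 CPM.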

How the results depend on the processing

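Of 53 recomputed counts and shares over the list, 44 were within 1.5 times of a count or within the counting interval of the share, and 9 moved. The 9 genes higher in macrophages than in cancer cells and the 3 higher in node than in tumour cancer cells were 9 and 3 under every setting run, and the 6 higher in macrophages than in monocytes were 6 to 8. The dendritic count of 3 was 1 with at least 200 UMIs. The Nrp2 count of 7 was 4 with doublets kept and 3 with no upper limit on detected genes. The median macrophage share of 43.0% was 20.47% with doublets kept, 33.97% with a mitochondrial limit of 10%, 21.62% with no upper limit on genes, 25.86% with each library clustered on its own, 41.77% with the genes allowed into the clustering, and 46.98% with the unnamed phagocyte clusters joined to the class they score highest for, an alternative chosen after seeing the data. Of 90 recomputed levels in macrophages, 54 moved, by 0.460 to 2.01 times, and 16 by over 1.5 times, among them Mmp12 (1827 CPM with doublets kept) and Cd36 (469.7 CPM). In these settings cluster M7 stayed together (219 of its 221 cells with doublets kept, 217 of 220 with no upper limit, 211 of 221 with separate clustering) but carried no name, so its cells left the class. The dendritic count could not be had with doublets kept or separate clustering, which left under 20 cells in a tissue. No paired analysis was possible because each group is 1 library. Genes with few UMIs per cell, such as Trem2, and classes under 50 cells are limited by depth.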
